A study of Mus musculus with 2 samples.

Results

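The distal convoluted tubule is the short nephron segment after the thick ascending limb. Nuclei of this segment were studied in single-nucleus RNA profiles of a sham-operated mouse kidney and of the remnant kidney left by 5/6 nephrectomy. A nucleus was counted as distal convoluted tubule when its barcode held at least 1000 unique molecular identifiers (UMIs, each standing for 1 captured RNA molecule) and at most 10% mitochondrial UMIs, and when 4 expression conditions were met. Slc12a3, Trpm6, Abca13 and Klhl3 together had to supply at least 0.3% of its UMIs. Slc12a3 had to exceed Slc12a1, the cotransporter of the thick ascending limb. Slc12a3 and Trpm6 together had to exceed Slc8a1, Egfem1 and Calb1, which mark the connecting tubule. Slc34a1, Slc13a1 and Slc5a12, of the proximal tubule, had to stay at or below 0.1% of UMIs. The rule took in 205 of the 5563 barcodes that passed the filters on UMIs and mitochondrial share (6383 barcodes in all), 79 from the sham library and 126 from the nephrectomy library.

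The study compared the remnant kidney, a surgical model of progressive renal scarring, with sham surgery in male T1+/+ mice (the labels do not explain the genotype name, and give it for the nephrectomy mice). The nephrectomy mice were 11 weeks old at surgery, and no age is given for the sham mice. The right kidney was taken out, and a week later both poles of the left kidney were tied off; control animals had both flanks opened and closed with the kidney left in place. Kidney tissue was collected 4 weeks after surgery and frozen, and nuclei were captured on the 10x Genomics Chromium system. Each group consisted of 1 library, and the labels do not say how many mice went into it, which part of the kidney was used, or at what hour it was collected. No difference described here therefore has a replicate check or a test across animals. All intervals are 95% intervals that cover counting error only.

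The distal convoluted tubule takes up sodium and chloride through the thiazide-sensitive cotransporter NCC, the product of Slc12a3. NCC is switched on by the kinases WNK1, WNK4 and SPAK, and WNK kinases are removed by the ubiquitin ligase built on KLHL3 and CUL3. The same cells reabsorb magnesium through the channel TRPM6, with EGF as a local stimulating hormone, and the late part of the segment also handles calcium and responds to aldosterone.

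The 79 sham nuclei held 620413 UMIs, with a median of 7235 per nucleus (range 2387 to 22079). The 126 nephrectomy nuclei held 1231577 UMIs, with a median of 9156 (range 1672 to 22040). Median mitochondrial shares were 0.512% and 0.491%. The libraries shared 2 barcodes, none of them among these nuclei. RNA of other cell types was present. A list of 14 proximal tubule genes outside the rule reached 2871 UMIs per 1000000 (CPM) in the sham nuclei and 1024 CPM in the nephrectomy nuclei, against 12534 and 6988 CPM in the whole libraries, and none of the 14 was at 0. Kap, an androgen-dependent proximal tubule gene, supplied 1183 of those sham UMIs and 411 of those nephrectomy UMIs. Defining markers of the collecting duct were near 0. The list of 8 collecting duct genes reached 29.0 and 34.1 CPM. Aqp2, Avpr2 and Kcne1 had no UMI in the sham nuclei. In the nephrectomy nuclei Aqp4 was at 0 and Aqp2 had 8 UMIs in 7 nuclei. The list of 8 podocyte genes stood at 3248 and 2171 CPM, of which Magi2 took 2998 and 2153 CPM, with UMIs in 72 sham and 119 nephrectomy nuclei. The other 7 podocyte genes reached 249.8 and 17.9 CPM. Markers of cell types other than proximal tubule, thin and thick limb and connecting tubule were then counted per nucleus. Some genes taken to be carried by these nuclei were left out (Magi2, Skap1 and Scnn1g among them), though Scnn1g had only 4 sham and 9 nephrectomy UMIs. With Scnn1g kept, the collecting duct list reached 10 UMIs in its highest nephrectomy nucleus. By this count, which leaves out proximal tubule genes, 4 nuclei held at least 10 UMIs of another cell type. In the sham library 1 nucleus held 140 UMIs of podocyte markers (1039 with Magi2) and 1 held 36 UMIs of endothelial markers, while 2 nephrectomy nuclei held 88 and 50 UMIs of intercalated cell markers. The list of 14 proximal tubule genes, Kap included, reached 195 UMIs in its highest sham nucleus and 61 UMIs in its highest nephrectomy nucleus. Whether these UMIs were free RNA or came from a second nucleus was not tested, so more nuclei than these 4 may be mixed.

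The rule genes describe the selected nuclei and are given without a test. Slc12a3 (ENSMUSG00000031766; mm10 chromosome 8, 94329201 to 94366214, plus strand) was at 13182 CPM (12897 to 13470.4) in the sham nuclei and at 13181 CPM (12979 to 13385) in the nephrectomy nuclei. Every nucleus of both libraries held at least 24 Slc12a3 UMIs. As a share of each nucleus's UMIs, Slc12a3 ran from 0.463% through a median of 1.26% to 2.01% in the sham library, and from 0.393% through 1.30% to 2.24% in the nephrectomy library, so the nuclei of the libraries overlapped almost completely. Trpm6 was at 2134 and 2169 CPM. Abca13, a transporter of the ABC family, was at 8804 and 10314 CPM, and Klhl3 at 2709 and 2266 CPM. The nephrectomy over sham ratio was 0.836 (0.787 to 0.889) for Klhl3 and 1.17 (1.13 to 1.21) for Abca13. Slc8a1, the sodium-calcium exchanger, was at 3138 and 2839 CPM, and the calcium-binding gene Calb1 at 585 and 626 CPM.

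The marker threshold lay in a gap. The nucleus with the lowest share of the 4 marker genes inside the rule had 0.707% with sham surgery and 0.815% with nephrectomy. Among barcodes that met every other condition, the highest shares outside were 0.123% and 0.107%. The proximal tubule limit cut through a continuous range. It left out 23 sham and 35 nephrectomy barcodes that met all other conditions, whose proximal share began at 0.104% and 0.101%, next to 0.0996% and 0.0890% for the highest inside. No barcode under 1000 UMIs met the other conditions.

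Distal convoluted tubule nuclei made up 2.98% of the passing nuclei in the sham library (79 of 2655, 2.36 to 3.69) and 4.33% in the nephrectomy library (126 of 2908, 3.62 to 5.14). The difference was 1.36 points (0.368 to 2.35). Connecting tubule nuclei, chosen by the reverse of the same gene comparison, stood at 6.10% and 7.36%, a difference of 1.26 points whose interval reached 0 (-0.0657 to 2.57). Thick ascending limb nuclei stood at 13.9% and 11.4%, a difference of -2.44 points (-4.20 to -0.697). Of all distal convoluted and connecting tubule nuclei, the distal convoluted tubule took 32.8% with sham surgery and 37.1% with nephrectomy, and the interval of that difference of 4.28 points (-3.63 to 11.97) also reached 0. These shares depend on the part of the kidney used, and on the number of other nuclei captured, and neither can be told apart from the surgery.

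Across all genes with at least 50 UMIs in these nuclei over both libraries, 5656 in number, 489 were at least 1.5-fold higher in the nephrectomy library (8.65%) and 567 at least 1.5-fold lower (10.0%). The other 4600 lay between, and the median log2 ratio of nephrectomy over sham was 0.03. At 2-fold the shares were 2.14% higher and 2.12% lower. Among genes with at least 200 UMIs, 4.41% were higher and 3.88% lower by 1.5-fold. Lists of genes are read below against these percentages. In what follows a gene is called higher or lower only past 1.5-fold, and a ratio is always the CPM of the nephrectomy nuclei over that of the sham nuclei. With every nucleus thinned to 1000 UMIs, 182 of the 489 higher and 331 of the 567 lower genes were still called. Thinning discards most UMIs (medians were 7235 and 9156 per nucleus), so it adds counting noise and brings many genes near the floor. What part of the loss is noise was not tested. With scaling factors from edgeR's TMM method in place of total UMIs the split was 622 higher and 464 lower.

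**Figure D1:**
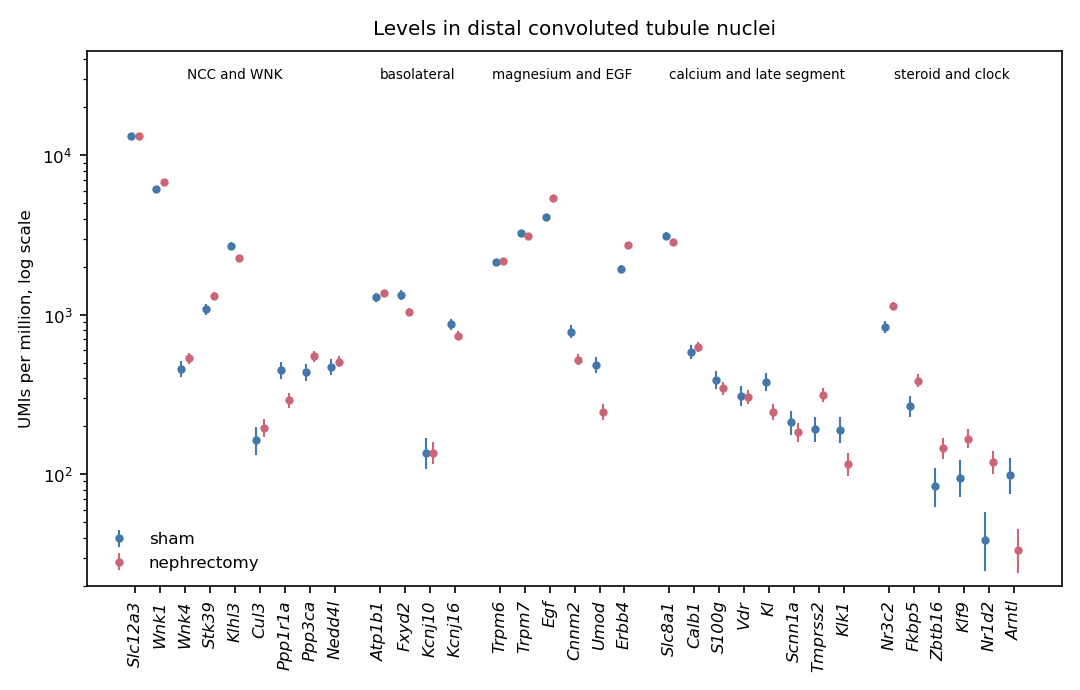
Levels of genes of salt, magnesium and calcium transport and of the corticosteroid and clock response in distal convoluted tubule nuclei, in CPM on a log scale, for the sham (blue) and nephrectomy (red) libraries; bars are 95% intervals for counting error. Slc12a3 sits at the same level in both libraries, Umod and Arntl are lower and Nr1d2 and Klf9 are higher in the nephrectomy library.

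The WNK pathway differed little. Of its 28 genes 22 were measured, of which none was higher, 3 were lower and 19 lay between, and the median log2 ratio was 0.02. The rule gene Klhl3 is 1 of the 22. Wnk1 was at 6149 CPM (5956 to 6347) in the sham nuclei and 6752 CPM (6608 to 6899) in the nephrectomy nuclei, a ratio of 1.10 (1.06 to 1.14). The files do not separate the kidney-specific Wnk1 transcript from the long one. Wnk4 had a ratio of 1.17 (1.01 to 1.35). Stk39, which codes for SPAK, the kinase that phosphorylates NCC, had a ratio of 1.22 (1.11 to 1.34), and Ppp3ca, the catalytic subunit of the phosphatase calcineurin, a ratio of 1.26 (1.09 to 1.46). Cul3 stood at 1.20 (0.945 to 1.53) and Nedd4l, a ubiquitin ligase that acts on NCC and sodium channels, at 1.08 (0.935 to 1.24).

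The 3 lower members were Ppp1r1a, Cops5 and Nedd8. Ppp1r1a codes for an inhibitor of protein phosphatase 1 and had 278 sham and 357 nephrectomy UMIs, or 448 and 289.9 CPM, which was 1.55-fold lower (ratio 0.647, 0.551 to 0.759). It was found in 74 of the sham nuclei and 106 of the nephrectomy nuclei. Cops5, a subunit of the COP9 signalosome, had a ratio of 0.471 (0.274 to 0.808) from 31 and 29 UMIs. Nedd8, the ubiquitin-like protein that activates cullin ligases, had a ratio of 0.556 (0.326 to 0.952) from 29 and 32 UMIs.

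The list for basolateral potassium and chloride transport showed no member past 1.5-fold either way among 15 measured of 22. Its median log2 ratio was -0.02. The list also holds Kcnj1 and Slc9a2, which are apical. Kcnj10 and Kcnj16 code for the basolateral potassium channel that sets the membrane voltage of these cells. From 84 sham and 168 nephrectomy UMIs, Kcnj10 had a ratio of 1.01 (0.771 to 1.33). Kcnj16, from 540 and 912 UMIs, stood at 0.851 (0.764 to 0.948). Atp1b1, the beta subunit of the sodium pump, had a ratio of 1.07 (0.978 to 1.16). Fxyd2, the small regulatory subunit of the pump, was at 1331 CPM and 1047 CPM, a ratio of 0.787 (0.720 to 0.860). In thick ascending limb nuclei the same ratios were 0.794 for Atp1b1 and 0.715 for Fxyd2.

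Genes of magnesium transport had a median log2 ratio of -0.16 over 13 measured members of 24, with none higher and 2 lower. Without the rule gene Trpm6 the median was -0.25. Egf codes for the precursor of the hormone that stimulates TRPM6. It was at 4115 CPM (3957 to 4278) in the sham nuclei and 5425 CPM (5295 to 5556) in the nephrectomy nuclei, a ratio of 1.32 (1.26 to 1.38). In thick ascending limb nuclei the ratio of Egf was 1.01 (0.987 to 1.03), and in connecting tubule nuclei it was 0.409 (0.373 to 0.449). Erbb4, a receptor of the EGF family, had a ratio of 1.41 (1.32 to 1.503), from 1949 to 2741 CPM. Trpm7, the partner channel of TRPM6, had a ratio of 0.963 (0.912 to 1.02) and Egfr one of 1.09 (0.734 to 1.63).

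Cnnm2, a basolateral protein needed for magnesium reabsorption, stood just inside the limit, at 783 and 523 CPM and a ratio of 0.668 (0.592 to 0.753). It had UMIs in 75 sham and 111 nephrectomy nuclei. After every nucleus was thinned to 1000 UMIs it was found in 60.8% of the sham nuclei and 33.3% of the nephrectomy nuclei. Among proximal tubule nuclei, which serve as a background for free RNA, those shares were 8.003% and 6.36%. This background can be too high for genes that proximal tubule nuclei express themselves. The 2 lower members were Umod and Magt1. Umod, the uromodulin gene of the thick ascending limb, had 300 and 304 UMIs and a ratio of 0.510 (0.434 to 0.601). Its share of thinned nuclei was 30.4% and 21.4%, near the 23.1% and 18.8% of proximal tubule nuclei, so most of it is read as background. Magt1, a magnesium transporter and part of an oligosaccharyltransferase, had a ratio of 0.618 (0.408 to 0.942) from 44 and 54 UMIs.

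Calcium transport and the late segment gave 14 measured genes of 22, with 1 higher and 3 lower. Their median log2 ratio was -0.19, or -0.29 without the rule genes Slc8a1 and Calb1. The higher gene was Tmprss2, a membrane serine protease, with 119 and 388 UMIs and a ratio of 1.64 (1.33 to 2.03). Its ratio was 1.601 in thick ascending limb nuclei, 1.29 in connecting tubule nuclei and 1.51 in proximal tubule nuclei. Atp2b2, a plasma membrane calcium pump, was lower, with 35 and 21 UMIs and a ratio of 0.302 (0.167 to 0.534), while its relative Atp2b1 had a ratio of 1.03 (0.814 to 1.30). Klk1, the tissue kallikrein, and Kl, which codes for klotho, had ratios of 0.606 (0.472 to 0.781) and 0.647 (0.544 to 0.771). Klk1 was found in 7.59% and 13.5% of thinned nuclei, against 12.8% and 11.6% of proximal tubule nuclei, which is at background. For Kl the shares were 29.1% and 23.8%, against 28.6% and 19.7%.

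Other genes of calcium and sodium uptake lay between the limits. The vitamin D receptor gene Vdr had a ratio of 0.986 (0.826 to 1.18), and S100g, a small calcium-binding protein, a ratio of 0.888 (0.757 to 1.04). By shares of thinned nuclei S100g also lay near proximal tubule nuclei, at 24.1% and 27.8% against 20.8% and 23.3%. Yet its level differed among these nuclei. In the later nuclei of the order described below it was 2.07 times (sham) and 1.84 times (nephrectomy) that in the earlier ones. The shares therefore do not settle how much of S100g is free RNA. Scnn1a, the alpha subunit of the epithelial sodium channel, had a ratio of 0.865 (0.694 to 1.08) and was above background, in 16.5% and 15.1% of thinned nuclei against 2.11% and 1.97%. The calcium channel gene Trpv5 had UMIs in 2 nuclei of each library.

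The corticosteroid and clock genes had the highest median among the lists of at least 10 measured genes. With nuclei thinned to 1000 UMIs it was 0.16, below the 0.18 of the basolateral list. Of 25 genes 16 were measured, with 4 higher, 1 lower and a median log2 ratio of 0.39, against 0.09 in thick ascending limb and 0.23 in connecting tubule nuclei. Nr3c2 codes for the mineralocorticoid receptor, through which aldosterone acts. It was at 833 CPM (763 to 908) in the sham nuclei and 1140.0 CPM (1081 to 1201) in the nephrectomy nuclei, a ratio of 1.37 (1.24 to 1.52). The glucocorticoid receptor gene Nr3c1 had a ratio of 0.900 (0.652 to 1.25). Among genes that corticosteroids are known to induce, Fkbp5, a chaperone partner of the receptors, had 165 and 476 UMIs and a ratio of 1.45 (1.21 to 1.75). After thinning to 1000 UMIs that ratio was 0.940. Zbtb16, a zinc finger repressor, had 52 and 179 UMIs and was higher at 1.73 (1.27 to 2.41). Klf9, a zinc finger factor, had 59 and 206 UMIs and was higher at 1.76 (1.31 to 2.39). Not every such gene was on that side, and Tsc22d3 had a ratio of 0.756 (0.503 to 1.14).

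Among the clock genes the activator and 1 of its repressors stood on opposite sides. Arntl codes for BMAL1, the factor that pairs with CLOCK to drive the circadian clock. It had 61 UMIs in the sham nuclei, or 98.3 CPM (75.2 to 126), and 41 UMIs in the nephrectomy nuclei, or 33.3 CPM (23.9 to 45.2). The level was 2.95-fold lower with nephrectomy (ratio 0.339, 0.222 to 0.511). At least 1 Arntl UMI was found in 28 of 79 sham nuclei and 24 of 126 nephrectomy nuclei. After thinning Arntl was in 13.9% and 1.59% of nuclei, against 2.27% and 1.89% of proximal tubule nuclei, so that it stood above background in the sham library. Nr1d2 codes for REV-ERB beta, a repressor of Arntl transcription. It had 24 UMIs, or 38.7 CPM (24.8 to 57.6), in the sham nuclei and 146 UMIs, or 119 CPM (100.1 to 139), in the nephrectomy nuclei, a ratio of 3.06 (1.98 to 4.94). In thinned nuclei the shares of Nr1d2 were 5.06% and 11.1%, at or below the 12.05% and 12.5% of proximal tubule nuclei. Those of Klf9 were 7.59% and 19.0% against 23.1% and 30.6%, and those of Zbtb16 2.53% and 16.7% against 13.3% and 21.0%. None of these 3 genes was therefore above proximal tubule nuclei by this measure. Those nuclei may express the genes themselves, so the measure cannot tell free RNA from expression here. Clock had a ratio of 0.729 (0.563 to 0.946).

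Other clock genes that follow the same cycle gave Per3 at 1.45 (0.919 to 2.37), Per2 at 1.44 (0.767 to 2.86) and Tef at 1.26 (0.932 to 1.72), all with intervals that include 1. Nr1d1 and Dbp, with 4 and 12 and with 6 and 18 UMIs, were not measured. Side by side, Arntl had ratios of 0.302 (0.228 to 0.398) in connecting tubule, 0.543 (0.355 to 0.824) in thick ascending limb and 0.741 (0.639 to 0.858) in proximal tubule nuclei. The corresponding ratios of Nr1d2 were 1.66 (1.28 to 2.17), 0.924 (0.801 to 1.07) and 0.975 (0.914 to 1.04). Nr1d2, Klf9 and Zbtb16 were below the level of the whole library in these nuclei. With the library's own profile subtracted as free RNA their ratios were 9.57, 2.75 and 3.27. The shares subtracted were 22.9% for the sham and 14.7% for the nephrectomy nuclei, against estimates of 13.3% and 11.5% without Kap. Before subtraction Nr1d2 had UMIs in only 15 of 79 sham nuclei. Its value of 9.57 thus rests on few UMIs and is not read as a larger difference.

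The promoters of Arntl, Nr1d2, Fkbp5 and Klf9 are shown for the clock pair with the lowest and highest ratio of the list and for 2 known corticosteroid targets, of which Klf9 was called higher and Fkbp5 was not. Each is the 250 bases before the transcription start, 5′ to 3′ on the strand of the gene, from RefSeq on GRCm38.p6, the build of the files. For Arntl 1 of 2 listed starts is shown. Capitals mark the E-box CACGTG, the sequence that BMAL1 and CLOCK bind.

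Arntl, chr7:113207215-113207464, plus strand: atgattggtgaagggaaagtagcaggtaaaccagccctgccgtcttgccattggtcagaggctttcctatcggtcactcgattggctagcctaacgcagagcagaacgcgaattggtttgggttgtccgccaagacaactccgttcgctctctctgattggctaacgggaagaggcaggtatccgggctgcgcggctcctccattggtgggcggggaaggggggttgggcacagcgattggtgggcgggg

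Nr1d2, chr14:18239107-18239356, minus strand: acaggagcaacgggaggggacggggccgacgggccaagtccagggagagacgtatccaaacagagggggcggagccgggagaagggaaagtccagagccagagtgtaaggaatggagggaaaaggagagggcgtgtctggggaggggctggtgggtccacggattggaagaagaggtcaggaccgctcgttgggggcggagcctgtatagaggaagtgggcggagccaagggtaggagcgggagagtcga

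Fkbp5, chr17:28486150-28486399, minus strand: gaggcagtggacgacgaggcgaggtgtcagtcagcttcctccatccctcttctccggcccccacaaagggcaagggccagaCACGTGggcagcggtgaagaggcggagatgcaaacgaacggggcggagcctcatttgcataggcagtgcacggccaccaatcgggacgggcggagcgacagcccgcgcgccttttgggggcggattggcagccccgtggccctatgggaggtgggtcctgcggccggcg

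Klf9, chr19:23140976-23141225, plus strand: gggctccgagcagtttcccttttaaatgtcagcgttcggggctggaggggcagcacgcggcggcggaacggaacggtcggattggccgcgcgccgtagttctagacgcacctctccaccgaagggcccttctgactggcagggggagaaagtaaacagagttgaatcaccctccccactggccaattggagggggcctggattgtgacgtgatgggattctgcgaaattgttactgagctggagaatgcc

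Both strands were searched for 2 motifs: the E-box CACGTG, and the core TAGGTNA of the element bound by REV-ERB proteins. These do not overlap in the windows shown. The Fkbp5 window held 1 E-box. No other match was found in the 4 windows, which says only that these letters are not there. Of 32851 promoter windows of the same length 6.02% held CACGTG and 7.25% held TAGGTNA.

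Transcription factors of the distal nephron showed no member past 1.5-fold among 24 measured of 32, with a median log2 ratio of 0.05. Esrrg, an orphan nuclear receptor of distal epithelium, stood at 5506 and 5668 CPM (ratio 1.03, 0.988 to 1.07). Mecom, a zinc finger factor, had a ratio of 1.18 (1.14 to 1.23), and Ppargc1a, a coactivator of mitochondrial genes, 1.19 (1.09 to 1.30). Sim1 stood nearest to the upper limit, at 471 and 694 CPM and a ratio of 1.48 (1.29 to 1.69), and Tfap2a to the lower, at 0.669 (0.465 to 0.967). Sall3 and Lhx1, the factors most concentrated in these nuclei, had ratios of 1.19 (0.928 to 1.54) and 1.00 (0.854 to 1.18).

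Of 25 known genes of the segment that the rule did not use 22 were measured. Slc41a3 (4 and 2 UMIs), Tcap (0 and 0) and Wnt4 (0 and 4) were not. All measured ones but Kcnj16 had a higher CPM here than in all other nuclei of the same library. Kcnj16 stood at 870 and 741 CPM against 949 and 813 CPM. Between the libraries none was higher and 2 were lower, Ppp1r1a and Pvalb, with a median log2 ratio of 0.02. That ratio does not bear on the label of distal convoluted tubule. Pvalb codes for parvalbumin, a calcium-binding protein known from the early segment. It had 49 sham UMIs in 31 nuclei and 52 nephrectomy UMIs in 33 nuclei, or 79.0 and 42.2 CPM, a ratio of 0.535 (0.355 to 0.806). In connecting tubule nuclei the Pvalb ratio was 0.334 (0.167 to 0.647). After thinning, Pvalb was in 8.86% of sham and 4.76% of nephrectomy nuclei, against 0.674% and 0.606% of proximal tubule nuclei. Slc16a7, a monocarboxylate transporter, had a ratio of 1.33 (1.24 to 1.42), and Tsc22d2 one of 0.703 (0.632 to 0.782).

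Genes outside the rule that were most concentrated in these nuclei were ranked by their CPM over that in all other nuclei, taking the lower of the folds of both libraries. This ranking describes selected nuclei and is no test. Fgf13, a partner of voltage-gated sodium channels, led with at least 46.9-fold, at 316 and 398 CPM against 6.26 and 8.49 CPM elsewhere. It was not evenly spread, since 33 of 79 sham nuclei and 65 of 126 nephrectomy nuclei held a UMI of it. Lrrc52, a potassium channel subunit, followed at 31.0-fold, then the glutamate receptor gene Grin3a at 23.4-fold and Ptgfr, the receptor of prostaglandin F2 alpha, at 20.3-fold. Cwh43 (18.3-fold), the transcription factor gene Sall3 (13.0-fold), the beta-adrenergic receptor gene Adrb1 (11.4-fold) and Pvalb (11.2-fold) were also among the first 15. Of those 15, Adamtsl3, at 2.04 (1.27 to 3.41), and Syt9, at 1.90 (1.30 to 2.84), were higher in the nephrectomy library. Grin3a, at 0.553 (0.385 to 0.796), Pvalb and the ferritin receptor gene Scara5, at 0.628 (0.452 to 0.875), were lower.

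**Figure D2:**
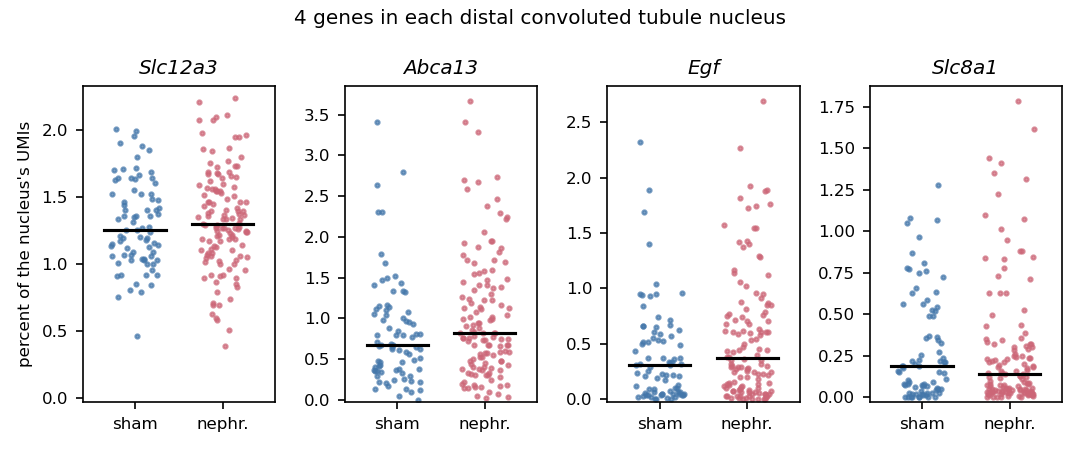
Share of each nucleus's UMIs taken by Slc12a3, Abca13, Egf and Slc8a1 in distal convoluted tubule nuclei of the sham and nephrectomy libraries; each point is 1 nucleus and the black line is the median. Slc12a3 keeps within 0.393% to 2.24%, while Egf and Slc8a1 run from 0 to 2.69% and 1.79%.

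Within each library the nuclei were not uniform. With every nucleus thinned to 2000 UMIs (2 shallower nephrectomy nuclei left out), the variance of a gene's UMIs over nuclei divided by its mean had a median of 1.09 (sham) and 1.10 (nephrectomy) over 3177 genes. Pure counting noise gives 1. Beside Malat1, a nuclear noncoding RNA, the most variable genes were Abca13, at 11.1 and 11.9, and Egf, at 10.2 and 11.1, followed by Slc8a1, at 7.61 and 11.1. Erbb4, at 3.74 and 4.34, and Defb1, an antimicrobial peptide gene, at 4.40 and 3.71, were also among the first 10, as were mt-Co3 and mt-Atp6. Egf ran from 0 in 3 sham and 5 nephrectomy nuclei to 2.32% and 2.69% of a nucleus's UMIs, with medians of 0.304% and 0.374%. The libraries overlapped over that whole range.

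Nuclei were also ordered by the share of Slc8a1, Egfem1 and Calb1 among these genes and Slc12a3 and Trpm6. This share is taken here to be low in the early and high in the late segment. Median shares were 13.6% for sham and 9.95% for nephrectomy nuclei, with ranges of 0 to 45.8% and 0 to 49.5%. The rule sets its upper end. Above the median of each library, Cnnm2 was 1.64 times (1.36 to 1.98) and 1.90 times (1.61 to 2.25) its level below, and Sgms2, a sphingomyelin synthase, 1.79 times (1.601 to 2.01) and 1.43 times (1.32 to 1.56). Vdr was at 1.41 times (1.05 to 1.90) and 1.62 times (1.31 to 2.01). Egf was lower in the later nuclei, at 0.692 times (0.639 to 0.749) and 0.681 times (0.648 to 0.715), and so was Erbb4, at 0.836 and 0.702 times. Of 28 genes outside the rule compared in this way, 6 were higher and 3 lower in the later nuclei of both libraries, with intervals that left out 1. Beside those 5 they were S100g, at 2.07 and 1.84 times, Emx1, at 1.93 and 1.31, Kcnj1, at 1.37 and 1.16, and Slc16a7, at 0.816 and 0.868. Esrrg lay on opposite sides of 1, at 0.896 and 1.06, and 18 genes had an interval that included 1 in at least 1 library. Among these 18, Wnk1 stood at 1.23 times (1.15 to 1.31) in the sham and 0.984 times (0.942 to 1.03) in the nephrectomy library, and Fgf13 at 1.30 times (0.968 to 1.74) and 0.738 times (0.614 to 0.886). Pvalb, known from the early segment, was not lower in the later nuclei. It stood at 1.32 times (0.725 to 2.45) in the sham and 2.69 times (1.43 to 5.38) in the nephrectomy library.

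Injury genes were mostly not seen. Of 36 genes of epithelial injury and dedifferentiation 8 were measured, with 2 higher and 2 lower. Havcr1, which codes for kidney injury molecule 1, had 0 UMIs in both libraries, and Vcam1 and Lcn2 had 1 and 5 UMIs in all. Itgav, the alpha chain of integrins that activate TGF-beta, was higher at 1.70 (1.40 to 2.09), from 206 CPM (172 to 245) in sham to 352 CPM (319 to 386) in nephrectomy nuclei. It was found in 54 sham and 111 nephrectomy nuclei, and in 20.3% and 29.4% of thinned nuclei, against 14.7% and 17.2% of proximal tubule nuclei. The keratin gene Krt7 had a ratio of 1.73 (0.937 to 3.39) from 14 and 48 UMIs. Spp1, which codes for osteopontin, had a ratio of 1.30 (1.04 to 1.62), against 2.29 in proximal tubule nuclei. The lower genes were S100a11, at 0.487 (0.282 to 0.840), and Sox4, at 0.591 (0.326 to 1.08), with at most 30 UMIs of either in each library. Of the immediate early genes 3 of 24 were measured, and Ier3, at 0.582 (0.467 to 0.726), and Jund, at 0.624 (0.407 to 0.960), were lower. Of 28 genes of cytokines, chemokines and adhesion 1 was measured, Nfkb1, with a ratio of 1.52 (1.04 to 2.28) that was 0.705 after thinning.

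Growth factor and profibrotic signalling gave 22 measured genes of 47, with 2 higher, 3 lower and a median log2 ratio of -0.03. Erbb3, at 2.02 (1.08 to 4.03), and Bmp7, an antifibrotic ligand of the BMP family, at 1.87 (1.02 to 3.66), were higher. Fgf1 was lower at 0.460, but 51 of its 92 sham UMIs came from a single nucleus, and without the highest nucleus of each library the ratio was 0.945. Smad7, an inhibitor of TGF-beta signalling, was lower at 0.652 (0.487 to 0.876) and Tgfbr2, a TGF-beta receptor, at 0.584 (0.330 to 1.04). The insulin receptor gene Insr had a ratio of 1.47 (1.20 to 1.82) and the IGF1 receptor gene Igf1r 1.39 (1.22 to 1.596), while Fgfr2 stood at 0.680 (0.583 to 0.795).

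Of 28 genes of chondroitin sulfate synthesis and its core proteins, the subject of the study, 2 were measured in these nuclei. Csgalnact1, the enzyme that starts chondroitin chains, had 10 sham UMIs in 6 nuclei and 7 nephrectomy UMIs in 3 nuclei. In thinned nuclei its shares were 1.27% and 0%, below those of proximal tubule nuclei (11.8% and 9.32%). Proximal tubule nuclei may express it themselves, so its few UMIs cannot be told from free RNA. Vcan, the versican gene, had 3 and 5 UMIs. Xylt1, which starts the linker of all such chains, was lower, at 139 and 80.4 CPM and a ratio of 0.580 (0.430 to 0.783). In connecting tubule nuclei the Xylt1 ratio was 0.543 (0.410 to 0.718).

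**Figure D3:**
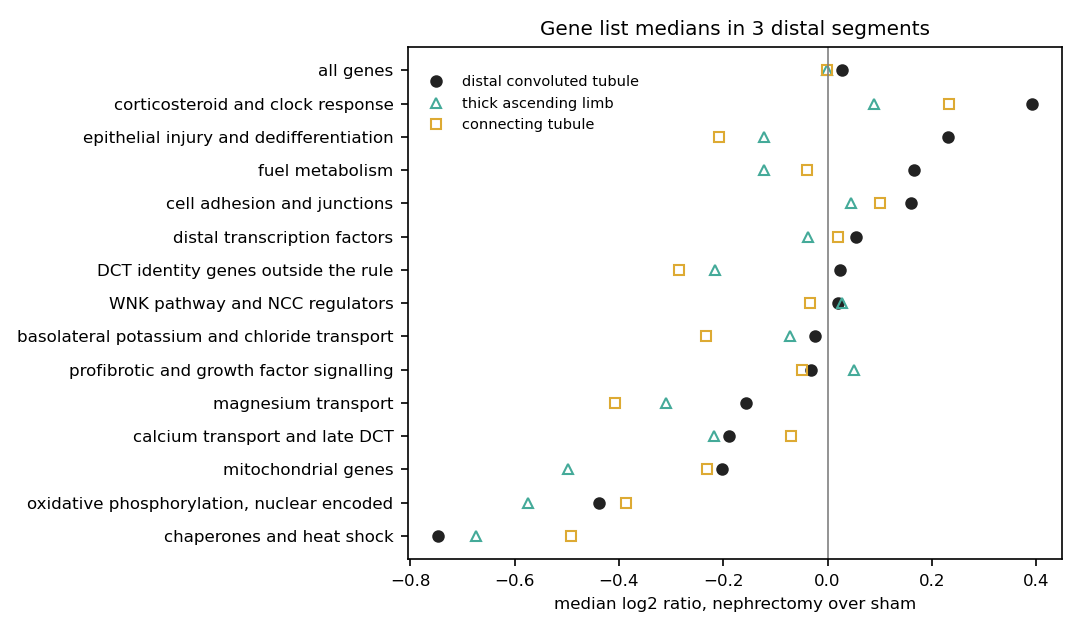
Median log2 ratio of nephrectomy over sham for each gene list with at least 8 measured members in distal convoluted tubule nuclei, beside the median of the same list in thick ascending limb and connecting tubule nuclei. Corticosteroid and clock genes have the highest median in distal convoluted tubule nuclei (0.39), chaperones the lowest (-0.75).

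Nuclear genes of oxidative phosphorylation and chaperones had medians below 0. All 41 nuclear genes of oxidative phosphorylation were measured, with none higher and 15 lower. Their median log2 ratio was -0.44, beside -0.57 in thick ascending limb nuclei and -0.39 in connecting tubule nuclei. Sdhd, of complex II, was lower at 0.442 (0.275 to 0.709), Cycs, which codes for cytochrome c, at 0.470 (0.333 to 0.661), and Uqcrb, of complex III, at 0.470 (0.335 to 0.660). Members such as Atp5k, at 1.31 (0.878 to 1.99), and Sdha, at 1.19 (0.960 to 1.49), lay between. Chaperones had a median of -0.75 over 12 measured of 25, with none higher and 7 lower. Dnaja1, a cochaperone, had 71 and 52 UMIs and was 2.71-fold lower (ratio 0.369, 0.253 to 0.535), Hspa5, the chaperone of the endoplasmic reticulum, 2.16-fold lower, and Hspa8 1.72-fold lower. Their ratios in thick ascending limb nuclei were 0.626, 0.545 and 0.473.

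Gene length moved with these lists. The 579 measured genes that span under 10000 bases had a median log2 ratio of -0.38, with 22 higher and 204 lower (35.2%), a share near that of the oxidative phosphorylation genes. The medians were 0.01 for 2487 genes of 10000 to 50000 bases, 0.09 for 2110 genes of 50000 to 200000 bases and 0.16 for 479 longer genes. The 77 ribosomal protein genes had a median of -0.49, with 1 higher and 33 lower. The median span was 7187 bases for the oxidative phosphorylation genes and 9756.5 bases for the chaperones. The share of free RNA estimated from proximal tubule genes also differed, at 22.9% for the sham and 14.7% for the nephrectomy nuclei, or 13.3% and 11.5% without Kap. With the library profile subtracted at the former shares the median was -0.41 for oxidative phosphorylation and -0.47 for chaperones. The part of gene length in these medians was not tested.

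Mitochondrially encoded genes had a median of -0.20 over 11 measured of 13, with 1 higher and none lower. With free RNA subtracted this median was 0.0127. mt-Atp6 had a ratio of 0.733 (0.665 to 0.808) and mt-Nd3, the higher gene, 1.76 (1.27 to 2.48). Fuel metabolism gave 29 measured of 43, with 2 higher, 5 lower and a median of 0.17. Pdk4 codes for a kinase that closes pyruvate dehydrogenase. It had 26 sham UMIs in 20 nuclei and 121 nephrectomy UMIs in 53 nuclei, or 41.9 CPM (27.4 to 61.4) against 98.2 CPM (81.5 to 117). This gave a ratio of 2.34 (1.52 to 3.73). Thinned to 1000 UMIs, Pdk4 was found in 6.33% and 11.9% of these nuclei, against 1.43% and 9.39% of proximal tubule nuclei, where its ratio was 9.59. Pdk1 was higher at 1.59 (1.13 to 2.28). The lower genes were Ppard, a fatty acid sensing nuclear receptor, at 0.394 (0.248 to 0.623), Gapdh and Pgk1 of glycolysis, Acadm of fatty acid oxidation, and Glul, the glutamine synthetase gene. The last 4 had ratios from 0.543 to 0.611.

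Junction and matrix genes had a median of 0.16 over 20 measured of 42, with 3 higher and none lower. The higher genes included Lamc1, a laminin chain, at 1.87 (1.22 to 2.95), and Marveld2, which codes for tricellulin, at 1.58 (0.867 to 3.04). The cell cycle list had 3 measured genes of 34. The inhibitor gene Cdkn1b was higher at 2.35 (1.25 to 4.82), with UMIs in 11 sham and 50 nephrectomy nuclei, and so was Pola1, of DNA polymerase alpha, at 3.78 (1.80 to 9.15). After thinning both ratios were 1.04. Mki67 and Top2a, which mark cycling cells, had 13 UMIs and 1 UMI in all.

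**Figure D4:**
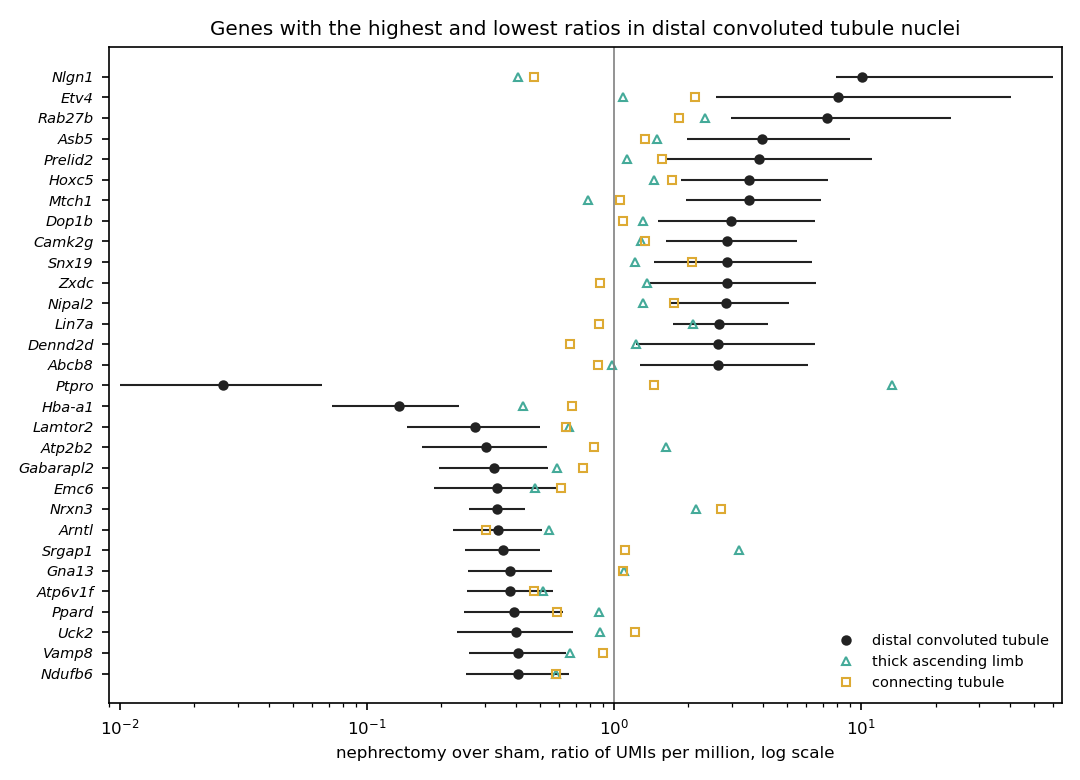
Ratio of nephrectomy over sham, on a log scale, for the 15 highest and 15 lowest genes of the naming rule in distal convoluted tubule nuclei (black, with the 95% counting interval, cut at the edge of the plot for Nlgn1 and Ptpro), beside the ratio in thick ascending limb and connecting tubule nuclei. Etv4 and Rab27b lie above 7 in distal convoluted tubule nuclei. Several genes, Atp2b2 and Dennd2d among them, lie on opposite sides of 1 in different segments. Nlgn1, Ptpro, Nrxn3 and Srgap1 do so past 1.5-fold with intervals that leave out 1 on both sides.

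Single genes past 2-fold, with a counting interval that left out 1 and a level at or above that of the whole library, numbered 62 higher and 47 lower (2.14% and 2.12% of all measured genes passed 2-fold alone), and the 15 furthest on each side are named. Some rested on few nuclei. Nlgn1, a synaptic adhesion gene, had 0 sham and 60 nephrectomy UMIs and was at least 10.1-fold higher against a floor of 3 UMIs in the sham sum, but all 60 came from 2 nuclei. Etv4, a transcription factor of the ETS family, was spread widely. It had 3 UMIs in 3 sham nuclei and 48 UMIs in 35 nephrectomy nuclei, a ratio of 8.06 (2.60 to 40.5), and its ratio was 1.09 in thick ascending limb and 2.14 in connecting tubule nuclei. Rab27b, a GTPase of vesicle secretion, had 5 UMIs in 3 nuclei and 72 UMIs in 29 nuclei, a ratio of 7.25 (2.97 to 23.0). Asb5, Prelid2, Hoxc5, Mtch1, Dop1b, Camk2g, Snx19, Zxdc, Nipal2, Lin7a, Dennd2d and Abcb8 followed, with ratios from 3.97 down to 2.63. In this group Mtch1, a protein of the mitochondrial outer membrane, was found in 10 sham and 61 nephrectomy nuclei, and Camk2g, a calcium-dependent kinase, in 11 and 60.

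On the low side Ptpro, a podocyte phosphatase, had 58 sham UMIs, all in the 1 nucleus with podocyte markers, and 2 nephrectomy UMIs. Hba-a1, the alpha globin gene of red cells, had 60 and 16 UMIs, of which 37 sham UMIs came from 1 nucleus, and without the highest nucleus of each library its ratio moved from 0.134 to 0.3004. Srgap1, a regulator of small GTPases, had a ratio of 0.354, which was 0.613 without the 4 nuclei that carried markers of another cell type. Nrxn3, a neurexin, had a ratio of 0.337 (0.259 to 0.438) and 48 of its 148 sham UMIs in 1 nucleus. Arntl and Atp2b2, described above, belong to the same group and had no more than 8 and 4 UMIs in any nucleus. Lamtor2, Gabarapl2, Emc6, Gna13, Atp6v1f, Ppard, Uck2, Vamp8 and Ndufb6 made up the rest, with ratios from 0.275 to 0.408 and at most 6 UMIs in any nucleus.

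Among more abundant genes Defb1 stood out, with 1036 UMIs or 1669.9 CPM (1569.7 to 1775) in the sham nuclei and 1012 UMIs or 822 CPM (772 to 874) in the nephrectomy nuclei. It was 2.03-fold lower (ratio 0.492, 0.451 to 0.537), with ratios of 0.406 in connecting tubule, 0.820 in thick ascending limb and 0.512 in proximal tubule nuclei. Pde10a, a cyclic nucleotide phosphodiesterase, had 356 UMIs in 46 sham nuclei and 346 UMIs in 53 nephrectomy nuclei, a ratio of 0.490 (0.421 to 0.569). Both genes are also among the 10 most variable between nuclei.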

How the data were processed

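Counts of UMIs for 32285 genes in each barcode were used as deposited. The authors made them with Cell Ranger on mm10, version 7.0.1 per the file headers and 7.1.0 per the submitters' processing notes. Intron counting and barcode calling are not given in the sources used here. Gene positions came from GENCODE M21. The members and gene lists were chosen with earlier results of these data known.

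UMIs were summed over member nuclei and divided by their total (CPM). Sums have exact Poisson intervals, ratios exact conditional binomial intervals, shares exact Clopper-Pearson intervals and their differences Newcombe intervals. A gene needed 50 UMIs over both libraries. A count under 3 was set to 3 in ratios, and 1.5-fold either way counted as higher or lower. No doublet caller was used in the main analysis; Scrublet's own threshold called 6 sham and 3 nephrectomy barcodes, and removing the highest 3% of scores was an alternative. Thick ascending limb, connecting and proximal tubule nuclei were chosen by like rules on marker UMIs with the same filters.

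Named were the rule genes, the 15 highest and 15 lowest genes past 2-fold (interval without 1, level at or above the whole library, no predicted genes), 4 members at each end of every list, all members of the transport, transcription factor and identity lists, the 15 most concentrated and the 10 most variable genes. Others (Nr1d1, Dbp, Havcr1, Vcam1, Lcn2, Mki67, Top2a, Csgalnact1, Vcan, Insr, Igf1r and Fgfr2 among them) were added after their values were seen. Some genes that the rule names are not reported here. The script was tested on simulated data. R 4.3.3 with edgeR 4.0.16 gave TMM factors; all else ran in Python 3.11.15 (scanpy 1.11.5, scipy 1.17.1, matplotlib 3.10.9, pandas 2.3.3, numpy 2.4.6).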

Additional observations from a re-analysis of the deposited data

Results flagged for a closer look

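Of the genes named, 5 were past 1.5-fold in one direction in distal convoluted tubule nuclei and past 1.5-fold in the other in thick ascending limb or connecting tubule nuclei, each time with an interval that left out 1. Smaller differences of this kind, such as that of Egf, are not counted. The difference between segments was not tested for any of them, and each value is a ratio of nephrectomy over sham. Nlgn1 was at least 10.1-fold higher in distal convoluted tubule nuclei and had a ratio of 0.473 in connecting tubule nuclei (31 and 27 UMIs). Ptpro had a ratio of 0.0261 in distal convoluted tubule nuclei and of 13.3 in thick ascending limb nuclei, from 3 and 49 UMIs. Nrxn3 had a ratio of 0.337 in distal convoluted tubule nuclei and of 2.14 in thick ascending limb nuclei, where it had 755 and 1984 UMIs. Srgap1 stood at 0.354 and, in thick ascending limb nuclei, at 3.19 (25 and 98 UMIs). Pde10a stood at 0.490 and, in thick ascending limb nuclei, at 2.48 (131 and 399 UMIs). In distal convoluted tubule nuclei the first 2 genes rested on at most 2 nuclei in either library.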

How the results depend on the processing

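No paired analysis was possible because each group had 1 library, and no library could be left out. The difference in share of nuclei stayed between 1.08 and 1.61 points over 9 alternatives. The count of higher genes, 489, was 933 with every nucleus thinned to 1000 UMIs, 1055 and 75 with minimums of 20 and 200 UMIs per gene, 822 with free RNA subtracted and 121 at 2-fold. The count of lower genes, 567, was 1132 after thinning, 1313 and 66 with those minimums and 120 at 2-fold. TMM factors gave 622 and 464, with a shift of -0.06 on the log2 scale. For list medians the limit was the median half-width of the members' counting intervals, 0.17 to 0.60 on the log2 scale. That width belongs to single genes, so it is a loose limit for a median. Of 168 alternative list medians over 14 lists, 167 stayed within it. They include the injury median, 0.23 and -0.09 after thinning. Marker shares of 0.2% and 0.5%, both among the alternatives for the share of nuclei, kept the same 79 and 126 nuclei, so they could change nothing. The mitochondrial median of -0.20 became 0.0127 with free RNA subtracted. Egfem1, from 4 and 19 UMIs, reversed to 0.905 with equal weight per nucleus. Of the single genes named, 72 of 174 moved by more than their interval after thinning and 24 of 178 with free RNA subtracted. After thinning Klk1 reversed to 2.19, Nfkb1 to 0.705 and Hspd1 to 1.36. Thinned values rest on few UMIs, and Klk1 was left in 6 sham and 17 nephrectomy nuclei. Leaving out nuclei with another type's markers, or each gene's highest nucleus, was chosen after seeing the data. Depth limits these nuclei, since 26629 of 32285 genes were below 50 UMIs. Cause was not tested.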
